A study of Homo sapiens with 12 samples.

Results

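The small GTPases RAB27A and RAB27B and 7 genes of the secretory machinery around them were followed through 12 RNA-seq libraries of human gastric cancer cells. The 9 genes were taken by symbol from the 50868 gene identifiers of the count table: RAB27A, RAB27B, RAB3D, SYTL1, SYTL2, SYTL4, SYTL5, EXPH5 and MLPH. They were chosen by the low counts of RAB27B and SYTL2 in a ZNF165 knockdown, so all member values of that comparison are given as a description, without a test. The libraries come from the established gastric carcinoma lines MKN28 and MKN45, with 3 libraries in each of 4 groups. MKN28 cells carried either a control lentivirus (genotype WT) or a lentivirus with an siRNA against ZNF165 (genotype ZNF165 knockdown). MKN45 cells carried either a control lentivirus (genotype WT) or a lentivirus for ZNF165 (genotype ZNF165 Overexpression). All cells were therefore transduced, no parental cells are among the groups, and knockdown and overexpression were each made in only 1 line. Nothing in the labels tells separate cultures from repeat preparations. The p-values therefore refer to the variation among these libraries, part or all of which may be technical.

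RAB27 proteins sit on secretory granules, lysosome-related organelles and multivesicular bodies and, when bound to GTP, recruit effectors that move, tether and dock these vesicles at the plasma membrane. The synaptotagmin-like proteins (SYTL genes, also called Slp) bind RAB27 through an N-terminal domain and membrane through C2 domains, whereas melanophilin (MLPH) links RAB27A to myosin Va on actin. In the stomach RAB27B and SYTL2 are known from the surface mucous cells, where they serve mucin granules, and RAB3D is known from the granules of exocrine cells. RAB27 proteins also take part in the release of exosomes.

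The start regions of 3 members are shown because the contrasts between libraries turn on these genes. RAB27B was nearly silent in the knockdown, RAB27A, its paralog, was not, and MLPH had no counts in MKN28 controls but was expressed in MKN45. Windows run from 250 bases before to 50 bases after an annotated start (RefSeq, GRCh38.p14), 5′ to 3′ on the gene's strand. Capitals mark the letters GGGCGG (the GC box), CACGTG (an E-box) or TATAAA (the TATA box), searched on both strands, so that CCGCCC is a GC box read on the other strand. None of these matches overlaps another. Which start the cells used was not measured.
RAB27A, most upstream start, chr15:55319074-55319373, minus strand: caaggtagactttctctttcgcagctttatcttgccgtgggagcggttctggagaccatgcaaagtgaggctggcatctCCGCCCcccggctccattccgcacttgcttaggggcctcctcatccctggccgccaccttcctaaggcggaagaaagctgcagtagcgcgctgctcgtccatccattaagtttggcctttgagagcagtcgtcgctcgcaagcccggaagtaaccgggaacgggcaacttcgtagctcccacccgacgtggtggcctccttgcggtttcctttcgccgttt
RAB27B, upstream start, chr18:54717607-54717906, plus strand: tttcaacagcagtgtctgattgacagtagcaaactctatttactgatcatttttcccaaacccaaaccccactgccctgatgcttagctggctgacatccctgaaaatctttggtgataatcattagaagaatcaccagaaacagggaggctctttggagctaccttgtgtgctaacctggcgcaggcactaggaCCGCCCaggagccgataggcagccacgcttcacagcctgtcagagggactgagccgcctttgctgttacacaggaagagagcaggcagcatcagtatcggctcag
RAB27B, downstream start, chr18:54828227-54828526, plus strand: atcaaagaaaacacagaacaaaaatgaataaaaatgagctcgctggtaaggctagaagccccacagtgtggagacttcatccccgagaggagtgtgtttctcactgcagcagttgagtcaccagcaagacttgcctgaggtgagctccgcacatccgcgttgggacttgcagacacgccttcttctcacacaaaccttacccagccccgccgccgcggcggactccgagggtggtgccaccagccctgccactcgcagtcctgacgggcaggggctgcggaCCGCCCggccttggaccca
MLPH, upstream start, chr2:237486160-237486459, plus strand: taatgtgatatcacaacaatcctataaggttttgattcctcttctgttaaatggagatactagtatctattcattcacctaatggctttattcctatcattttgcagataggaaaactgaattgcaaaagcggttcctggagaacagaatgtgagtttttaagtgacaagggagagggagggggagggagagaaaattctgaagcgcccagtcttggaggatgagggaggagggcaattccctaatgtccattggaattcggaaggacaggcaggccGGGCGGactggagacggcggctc
MLPH, downstream start, chr2:237487001-237487300, plus strand: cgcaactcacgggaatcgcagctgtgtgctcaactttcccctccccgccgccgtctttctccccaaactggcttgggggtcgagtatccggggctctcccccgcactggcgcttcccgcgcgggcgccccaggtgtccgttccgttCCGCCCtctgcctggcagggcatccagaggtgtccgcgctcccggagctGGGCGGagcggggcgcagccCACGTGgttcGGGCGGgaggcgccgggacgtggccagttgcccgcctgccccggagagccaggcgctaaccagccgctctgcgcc

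The windows differed in CpG content. The RAB27B upstream window held 6 CG dinucleotides and the downstream window 17. The RAB27A window shown held 23, and the median was 14 over 35116 windows of the same length. RAB27A windows 2 to 5, further downstream and not shown, held 1, 6, 1 and 4, and windows 4 and 5 held TATA boxes. MLPH had 7 CG dinucleotides at its upstream start and 34 at its downstream start, a number reached by 15.6% of all windows. The 5 windows shown each held at least 1 GC box, a motif present in 45.0% of all windows. The MLPH downstream window alone among the 5 shown held an E-box, present in 7.26% of all windows. The TATA box, present in 11.5% of all windows, was in none of the 5 shown. RefSeq windows were found for 8 of the 9 members, 18 windows in all, the exception being SYTL2.

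Library totals ranged from 12075813 to 19548445 counts, so 3 counts correspond to 0.153 to 0.248 CPM (counts scaled to the library total). ZNF165 itself had 262, 186 and 287 counts in MKN28 controls 1 to 3 and 74, 40 and 22 in the knockdown libraries, and 156, 140 and 277 in MKN45 controls against 2115, 1977 and 1909 in the overexpression libraries. The descriptions of knockdown replicates 2 and 3 name other genes (ZNF166 and ZNF167) although their genotype field names ZNF165. All 5 epithelial markers (EPCAM, CDH1, KRT8, KRT18, KRT19) were expressed in every group, with summed levels of 7142 to 7718 CPM in MKN28 controls, 14451 to 36976 in the knockdown, 4885 to 9012 in MKN45 controls and 4456 to 7242 in the overexpression. The members of that list did not move together: CDH1, the cadherin of epithelial junctions, was at 351 to 446 CPM in MKN28 controls and 34.4 to 96.7 CPM in the knockdown, while KRT8 was at 2633 to 3751 and 8839 to 24871 CPM. The 4 melanocyte markers summed to 4.27 to 7.17 CPM in MKN28 controls, 6.49 to 10.4 in the knockdown, 7.84 to 9.26 in MKN45 controls and 4.94 to 9.82 in the overexpression, of which PMEL gave 2.69 to 10.4 CPM and MITF 0 to 5.06, while MLANA was at 0 in every library. The 4 fibroblast and endothelial markers summed to 88.9 to 122 CPM in MKN28 controls and 24.3 to 43.6 in the knockdown, nearly all of it COL1A1. The 4 blood cell markers summed to 0.284 to 0.468 CPM in MKN28 controls and 1.85 to 3.53 CPM in the knockdown, where 3 of the 4 were under 1 CPM; whether these markers bear on the results below was not tested. Libraries also differed in how the level of a gene related to its exon length. Across genes, Spearman's rho between CPM and exon length was 0.292 to 0.362 in MKN28 controls and 0.0557 to 0.131 in the knockdown. It was 0.384 to 0.393 in the overexpression libraries, and 0.348, 0.239 and 0.312 in MKN45 controls 1 to 3, so that control replicate 2 stood apart. These correlations describe libraries, since genes are not independent replicates.

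Among the GTPases, RAB27A was expressed in every group. Its gene (ENSG00000069974, chromosome 15, 55202966 to 55319113, minus strand, GRCh38 in GENCODE 29) had 317, 169 and 359 counts in MKN28 controls and 151, 58 and 30 in the knockdown. In MKN45 it had 432, 138 and 395 counts in controls and 373, 472 and 455 in the overexpression. Scaled over all 12 libraries, the order of its means was overexpression 19.7 ± 2.84, MKN45 control 17.5 ± 7.42, MKN28 control 13.1 ± 4.12 and knockdown 7.21 ± 3.44 CPM (SD, n = 3). Each of these groups overlapped with the next in that order.

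RAB27B (ENSG00000041353, chromosome 18, 54717860 to 54895516, plus strand) varied far more. It had 195, 122 and 112 counts in MKN28 controls and 3, 0 and 0 in the knockdown libraries. MKN45 controls held 402, 122 and 253 counts and overexpression libraries 521, 559 and 532. The order was overexpression 24.4 ± 1.43, MKN45 control 13.99 ± 5.98, MKN28 control 6.72 ± 1.96 and knockdown 0.0722 ± 0.125 CPM (SD, n = 3). The overexpression libraries lay above all MKN45 controls and the knockdown below all MKN28 controls, while the control groups of the 2 lines overlapped.

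RAB3D (ENSG00000105514, chromosome 19, 11322046 to 11346270, minus strand), the GTPase of exocrine granules, showed a different order. Its counts were 1241, 1469 and 799 in MKN28 controls, 54, 136 and 108 in the knockdown, 561, 499 and 290 in MKN45 controls and 256, 301 and 347 in the overexpression. MKN28 controls at 55.7 ± 18.7 CPM lay above MKN45 controls at 25.4 ± 8.25 without overlap (SD, n = 3). Overexpression at 13.8 ± 2.86 and knockdown at 11.4 ± 6.51 CPM followed, each overlapping the group before it. RAB3D shares genomic sequence with TMEM205 on the same strand and CCDC159 on the opposite strand. The strand setting of the counting is not given in the sources used here, so reads of overlapping genes cannot be told apart; the same holds for RAB27A with PIGB and PIGBOS1.

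**Figure D1:**
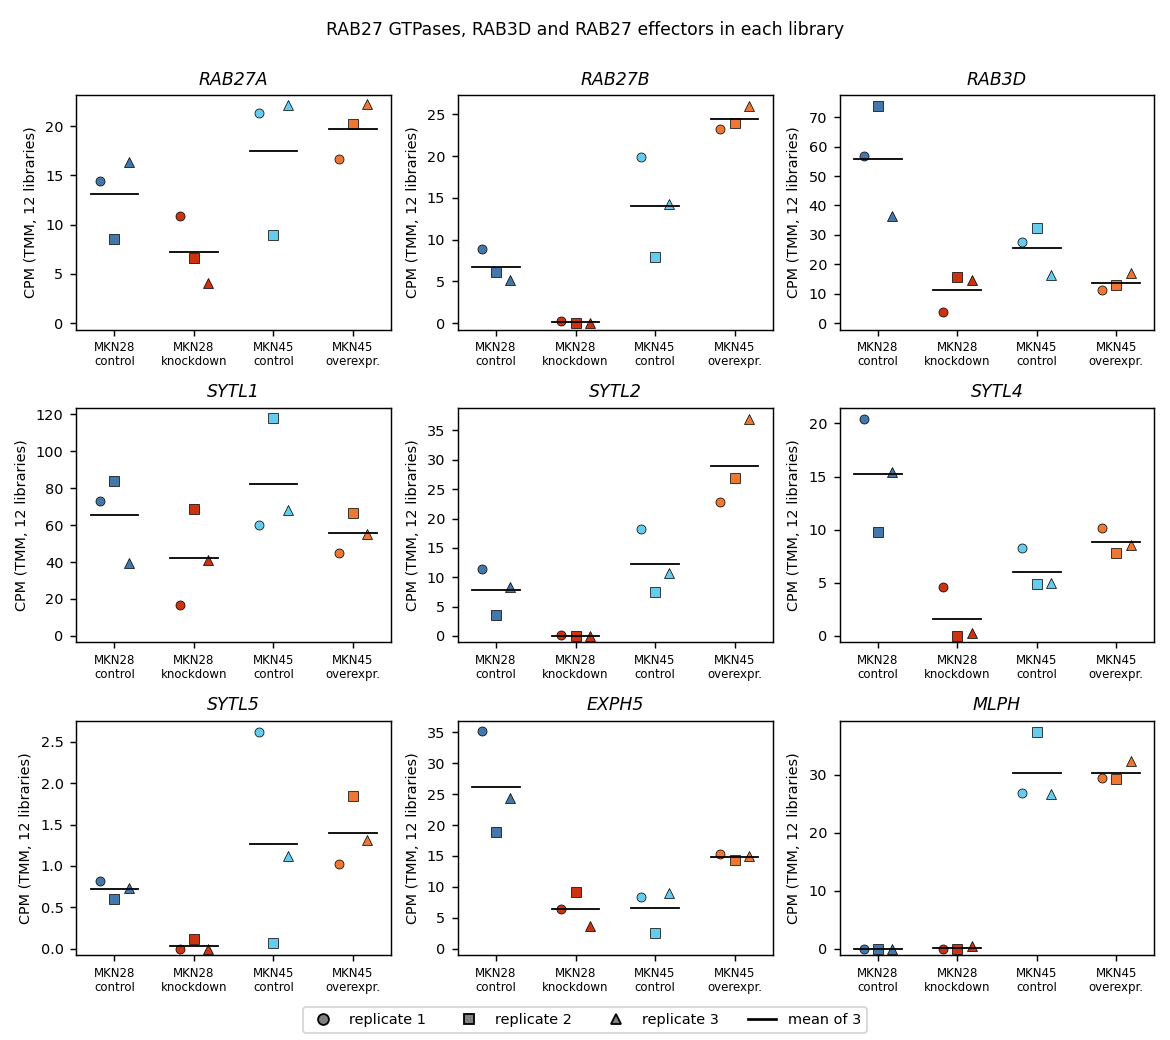
CPM of the 9 genes (y axis, scaled by TMM factors over all 12 libraries) in each library, with 1 symbol per replicate and a line at the mean of 3. RAB27B and SYTL2 lie at or near 0 in the 3 knockdown libraries and highest in the 3 overexpression libraries, and MLPH lies near 0 in all 6 MKN28 libraries.

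Of the synaptotagmin-like genes, SYTL1 was the most abundant. SYTL1 (ENSG00000142765, chromosome 1, 27342020 to 27353937, plus strand) had 1596, 1668 and 861 counts in MKN28 controls, 231, 600 and 301 in the knockdown, 1219, 1824 and 1217 in MKN45 controls and 1006, 1546 and 1128 in the overexpression. Its 4 group means ran from 82.3 ± 31.4 CPM in MKN45 controls to 42.2 ± 26.0 CPM in the knockdown (SD, n = 3), and each group overlapped with the next.

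SYTL2 (ENSG00000137501, chromosome 11, 85694224 to 85811159, minus strand), the mucous granule effector, followed the same order of groups as RAB27B. Its counts were 251, 70 and 183 in MKN28 controls and 3, 0 and 0 in the knockdown, with the 3 counts in the same library as those of RAB27B, replicate 1. In MKN45 they were 370, 116 and 191 in controls and 511, 627 and 756 in the overexpression. Means were 28.9 ± 7.28 CPM in the overexpression, 12.2 ± 5.52 in MKN45 controls, 7.78 ± 4.001 in MKN28 controls and 0.0722 ± 0.125 in the knockdown (SD, n = 3). As with RAB27B, treated and control libraries did not overlap within either line.

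SYTL4 (ENSG00000102362, chromosome X, 100674491 to 100732123, minus strand) encodes granuphilin, which docks dense-core granules. It had 447, 195 and 338 counts in MKN28 controls and 64, 0 and 2 in the knockdown, where replicate 1 stood above the other libraries. MKN45 controls had 168, 75 and 89 counts and overexpression libraries 227, 182 and 176. SYTL5 (ENSG00000147041, chromosome X, 38006582 to 38128819, plus strand) was the least abundant SYTL gene, with 18, 12 and 16 counts in MKN28 controls and 0, 1 and 0 in the knockdown. It had 53, 1 and 20 counts in MKN45 controls and 23, 43 and 27 in the overexpression, so its MKN45 control level rests on few counts in replicate 2.

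The effectors without C2 domains behaved differently from one another. MLPH (ENSG00000115648, chromosome 2, 237485428 to 237555318, plus strand) had 0 counts in every MKN28 control and 0, 0 and 3 in the knockdown. MKN45 controls had 543, 577 and 474 counts and overexpression libraries 660, 681 and 664, at 30.3 ± 6.15 and 30.4 ± 1.80 CPM (SD, n = 3). EXPH5 (ENSG00000110723, chromosome 11, 108505431 to 108593738, minus strand) encodes exophilin-5, a RAB27 effector in exosome and granule traffic. Its counts were 770, 374 and 532 in MKN28 controls, 88, 81 and 27 in the knockdown, 168, 39 and 161 in MKN45 controls and 343, 334 and 308 in the overexpression. EXPH5 was highest in MKN28 controls at 26.1 ± 8.31 CPM, above all overexpression libraries at 14.9 ± 0.503 CPM, which in turn lay above all MKN45 controls at 6.63 ± 3.57 CPM (SD, n = 3).

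Levels of different genes were compared only after division by exon length, as CPM per kb. In MKN28 controls RAB3D (12.6 ± 4.24) and SYTL1 (11.7 ± 4.16) overlapped and lay above all other members. EXPH5 (2.41 ± 0.767), RAB27A (2.34 ± 0.735) and SYTL4 (2.05 ± 0.714) followed, then RAB27B (0.905 ± 0.264) and SYTL2 (0.692 ± 0.355), SYTL5 (0.150 ± 0.0229) and MLPH at 0. In MKN45 controls SYTL1 stood alone at 14.7 ± 5.62 CPM per kb, and RAB3D (5.76 ± 1.87), MLPH (4.03 ± 0.818), RAB27A (3.12 ± 1.32) and RAB27B (1.88 ± 0.805) each overlapped with the next. In the overexpression libraries RAB27A (3.52 ± 0.506) and RAB27B (3.28 ± 0.192) overlapped (SD, n = 3).

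The knockdown comparison shows how these genes stood in MKN28 cells with less ZNF165, and it chose the members. Scaled within MKN28, RAB27B had 6.02 ± 1.76 CPM in controls and 0.0641 ± 0.111 in the knockdown, and SYTL2 7.08 ± 3.77 and 0.0641 ± 0.111 CPM (SD, n = 3). With all libraries of a group added, RAB27B was 69.4-fold lower (exact 95% counting interval 23.6 to 338) and SYTL2 81.6-fold lower (27.8 to 397). Because the libraries of a group were added, these intervals cover counting error only and leave out the spread between libraries. Reads carry no molecular identifiers, so counting error itself may be understated. SYTL5 was 22.3-fold lower by the same sum, with an interval of 3.81 to 901. SYTL4 had a fitted log2 fold change of −3.18 (SE 1.14), RAB3D −2.34 (SE 0.61) and EXPH5 −2.08 (SE 0.57). SYTL4 depended on knockdown replicate 1, without which the value was −6.79. Without that library RAB27B and SYTL2 have 0 knockdown counts, and their fitted values (−9.73 and −9.96) then depend on the prior count of the fit. In all 6 of these genes every knockdown library lay below every control. RAB27A (−0.92, SE 0.58) and SYTL1 (−0.68, SE 0.57) had overlapping groups. MLPH had too few counts for the fit. Because these are bulk samples, fewer expressing cells and less RNA per cell cannot be told apart.

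Of the 9 members, 8 passed the filter on low counts in MKN28, with RAB27B, SYTL2, SYTL4 and SYTL5 passing through the controls alone. By edgeR's quasi-likelihood test at an adjusted p under 0.05, 6 of the 8 were counted lower and 0 higher, beside 40.8% of all 14939 tested genes in either direction, 21.6% lower and 19.2% higher. Groups did not overlap, with the knockdown lower, for 6 members and for 30.3% of all tested genes (23.5% higher, 53.8% in either direction). Since this contrast chose the members, nothing is read from these counts. The median log2 fold change was −2.76 over the 8 members and −0.20 over all genes tested. Leaving out control replicate 1 brought the number counted lower to 2, and leaving out knockdown replicate 3 to 3. It was 5 with knockdown replicates 2 and 3 left out together, and RAB27B (log2 fold change −4.89) and SYTL2 (−5.12) were then still below every control. RAB3D (−3.81) and SYTL1 (−1.94) had larger differences in that fit and SYTL4 (−1.71) and RAB27A (−0.26) smaller ones. With library totals in place of TMM factors the median of all genes moved to −0.92, and 25.1% rather than 47.0% of the genes past the threshold were higher.

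Exon length moved with the knockdown. Tested genes were divided into 4 equal classes of exon length. The median log2 fold change was 1.09 in the class of shortest genes (up to 2589 bases) and −1.48 in the class of longest genes (from 6982 bases), and 45.3% of the longest class were counted lower. RAB27B (7432 bases of exon), SYTL4 (7428), EXPH5 (10843) and SYTL2 (11258) belong to the longest class, RAB27A (5605), SYTL1 (5584) and SYTL5 (4791) to the class below it and RAB3D (4417) to the next. With the trend of length and GC content removed, RAB27B had a log2 fold change of −4.63 and SYTL2 of −4.66, from the same values that chose them. The same step brought EXPH5 to 0.11 and RAB27A to 0.60, changing their direction, while SYTL1 moved to −1.55 and RAB3D to −2.98. The overlapping neighbour TMEM205 had a log2 fold change of 1.69 (SE 0.65, adjusted p = 0.0579, edgeR quasi-likelihood test).

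**Figure D2:**
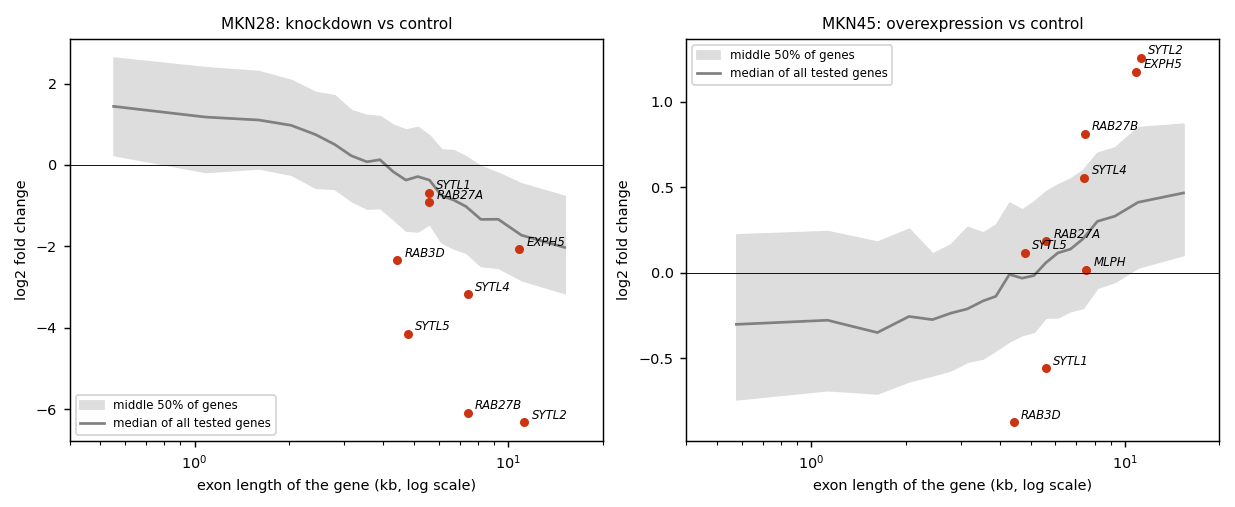
Fitted log2 fold change (y axis) against exon length in kb (x axis, log scale) for the members (red points), with the median (line) and middle 50% (band) of all tested genes that have a symbol, in 20 classes of length. In the knockdown RAB27B (−6.09) and SYTL2 (−6.33) lie below the band and EXPH5 within it; in the overexpression the band rises with length and SYTL2, EXPH5 and RAB27B lie above it.

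The overexpression comparison shares no library with the knockdown and asks how the same genes stood in MKN45 cells with more ZNF165. No member passed the test across all genes. SYTL2 had 13.8 ± 6.22 CPM in controls and 33.0 ± 8.57 in the overexpression (SD, n = 3), a 2.39-fold difference (log2 fold change 1.26, SE 0.35, adjusted p = 0.0824). EXPH5 went from 7.50 ± 4.03 to 17.02 ± 0.601 CPM, 2.26-fold (log2 fold change 1.18, SE 0.41, adjusted p = 0.125), and RAB27B from 15.8 ± 6.73 to 27.9 ± 1.83 CPM, 1.76-fold (log2 fold change 0.81, SE 0.32, adjusted p = 0.154, all edgeR quasi-likelihood test). For these 3 genes every overexpression library lay above every control. RAB3D pointed the other way, from 28.8 ± 9.41 to 15.7 ± 3.39 CPM (log2 fold change −0.87, SE 0.31, adjusted p = 0.125 by edgeR), but its groups overlapped, at 18.4 CPM in the lowest control and 19.5 CPM in the highest overexpression library.

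The other 5 members differed less. SYTL1 had a log2 fold change of −0.56 (SE 0.30, adjusted p = 0.259) and SYTL4 of 0.56 (SE 0.29, adjusted p = 0.245). RAB27A, the paralog of RAB27B, had 0.18 (SE 0.34, adjusted p = 0.750), SYTL5 0.12 (SE 0.75, adjusted p = 0.932) and MLPH 0.02 (SE 0.23, adjusted p = 0.970, edgeR quasi-likelihood test). The groups of all 5 overlapped, and without control replicate 2 the direction turned for RAB27A (−0.13) and SYTL5 (−0.41).

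By edgeR 0 of 9 members passed in either direction, beside 1.13% of all 15833 tested genes in either direction, 0.935% higher and 0.196% lower. At an unadjusted p under 0.05, 3 members were higher and 1 lower, beside 13.3% and 13.4% of all genes. DESeq2 called 2 members higher, SYTL2 (adjusted p = 0.0125) and EXPH5 (adjusted p = 0.0457), and 0 lower, beside 6.56% and 5.03% of all genes. Groups did not overlap, with the overexpression higher, for 3 of 9 members and for 19.4% of all tested genes, and lower for 0 members and 18.7% of genes (38.1% in either direction). The median log2 fold change was 0.18 over the 9 members and −0.0022 over all genes. Control replicate 2, which stood apart in length and had the lowest counts of RAB27A, RAB27B, SYTL2, SYTL4, SYTL5 and EXPH5 among its group, mattered for the size. Without it the log2 fold changes were 1.00 for SYTL2 (adjusted p = 0.0663), 0.79 for EXPH5 (adjusted p = 0.0378) 0.53 for RAB27B (adjusted p = 0.114) and −0.67 for RAB3D (adjusted p = 0.145, edgeR quasi-likelihood test). Without control replicate 1 SYTL2 passed (1.66, adjusted p = 0.0473, edgeR). The longest class of genes had a median of 0.34 in this comparison and the shortest of −0.28. With the length and GC trend removed the log2 fold changes were 0.81 for SYTL2, 0.70 for EXPH5 and 0.22 for RAB27B (adjusted p of 0.0695, 0.122 and 0.419, edgeR). Over the 13 alternatives tried, the edgeR or DESeq2 adjusted p was 0.0125 to 0.490 for SYTL2, 0.0378 to 0.475 for EXPH5 and 0.0692 to 0.579 for RAB27B.

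**Figure D3:**
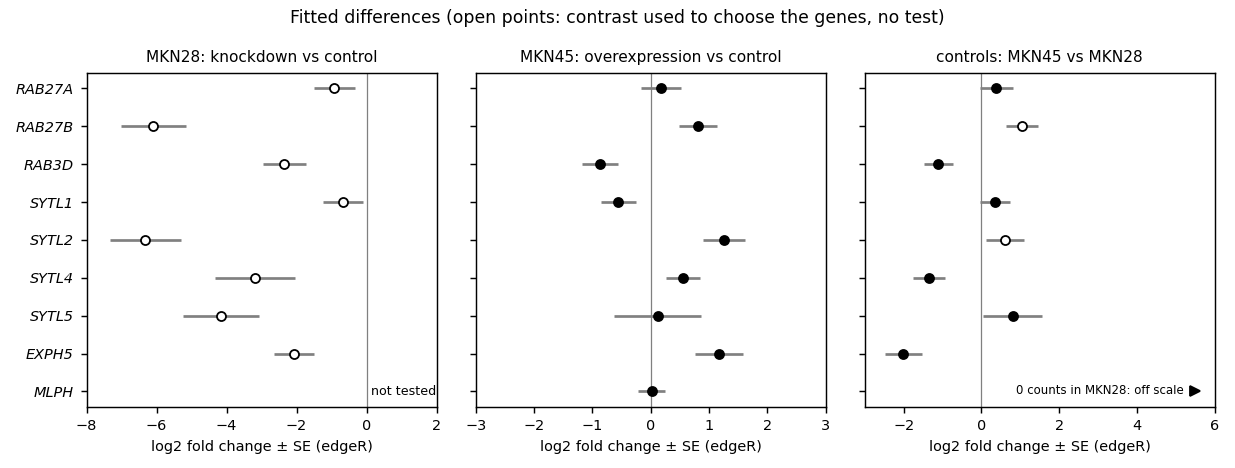
Fitted log2 fold changes (points) with standard errors (bars) of the 9 genes in the 3 comparisons, each panel on its own scale. Open points are described without a test; in the middle panel SYTL2, EXPH5 and RAB27B lie between 0.81 and 1.26 and RAB3D at −0.87, none past the threshold, and MLPH in the right panel is beyond the scale because MKN28 controls had 0 counts.

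The control libraries of the 2 lines were compared to show where the members differ between gastric cancer lines at similar ZNF165 counts. MLPH, the link to myosin Va, was at 0 counts in all 3 MKN28 controls and at 34.8 ± 8.87 CPM in MKN45 (SD, n = 3), at least 627-fold higher when the MKN28 group is set to a floor of 3 counts in total. Because MLPH passed the filter on low counts through MKN45 alone, it is given without a test. EXPH5 was lower in MKN45, at 7.42 ± 3.81 against 29.98 ± 10.02 CPM (log2 fold change −2.01, SE 0.48, adjusted p = 0.00492). SYTL4 was also lower, at 6.87 ± 2.06 against 17.5 ± 6.44 CPM (−1.35, SE 0.41, adjusted p = 0.0204), and so was RAB3D, at 29.3 ± 10.6 against 63.1 ± 18.7 CPM (−1.11, SE 0.38, adjusted p = 0.0336, edgeR quasi-likelihood test). The lines did not overlap for these 4 genes. RAB27A (0.38, SE 0.43, adjusted p = 0.504), SYTL1 (0.36, SE 0.38, adjusted p = 0.486) and SYTL5 (0.80, SE 0.77, adjusted p = 0.431, edgeR) overlapped and did not pass. RAB27B and SYTL2 are given without a test, as MKN28 controls helped to choose them: RAB27B had 7.68 ± 2.25 CPM in MKN28 and 15.8 ± 6.30 in MKN45, SYTL2 8.99 ± 4.75 and 13.7 ± 5.89 (SD, n = 3).

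Of the 6 members tested between lines 0 were higher in MKN45 (0 also at an unadjusted p under 0.05 by edgeR and by DESeq2) and 3 were lower, beside 21.4% and 20.4% of all 16088 tested genes (41.8% in either direction). Lines did not overlap for 3 of the 6 and for 52.3% of all tested genes, 26.9% higher and 25.4% lower in MKN45. The EXPH5 call held under all 13 alternatives, at an adjusted p of 0.000186 to 0.0349 by edgeR or DESeq2. The SYTL4 call ended without MKN28 control replicate 1 or MKN45 control replicate 2 or 3 (edgeR adjusted p = 0.122, 0.0512 and 0.0907), and the RAB3D call without MKN28 control replicate 1 or 2 or MKN45 control replicate 1 or 3 (edgeR adjusted p = 0.0895, 0.0985, 0.0734 and 0.155). Both calls ended in the fit of all 12 libraries (edgeR adjusted p = 0.218 for SYTL4 and 0.0856 for RAB3D), and that of RAB3D also with upper-quartile factors (edgeR adjusted p = 0.0531). Removal of the length and GC trend brought RAB27A past the threshold (log2 fold change 0.69, edgeR adjusted p = 0.0331). SRPX2, which overlaps SYTL4 on the opposite strand, was also lower in MKN45 (log2 fold change −3.86, SE 0.66, adjusted p = 0.000515, edgeR), with 600 counts over the MKN28 controls and 33 over the MKN45 controls.

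Shares within a library do not depend on how libraries are scaled. The trend with exon length and GC content, which differed between groups, was not removed from them. How far it moves the shares was not tested. RAB27B made up 31.7%, 35.3% and 19.0% of RAB27A and RAB27B together, per kb of exon, in MKN28 controls 1 to 3 and 1.48%, 0% and 0% in the knockdown. By counts, RAB27B had 3 of 154 RAB27 counts in knockdown replicate 1 (1.95%, Wilson 95% interval 0.665% to 5.57%). It had 0 of 58 and 0 of 30 in replicates 2 and 3, together 0 of 88, which allows a share of up to 3.41%. In MKN45 the share per kb was 41.2%, 40.0% and 32.6% in controls and 51.3%, 47.2% and 46.9% in the overexpression, so the 2 paralogs were close to equal there and the groups did not overlap. MKN45 control replicate 2, with low counts of both genes, had a share within the range of the other controls.

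The effectors were dominated by SYTL1. Of the summed level of SYTL1, SYTL2, SYTL4, SYTL5, MLPH and EXPH5 per kb, SYTL1 took 67.7 ± 12.2% in MKN28 controls, 86.2 ± 13.3% in the knockdown, 67.1 ± 8.93% in MKN45 controls and 50.9 ± 5.12% in the overexpression (SD, n = 3). In knockdown replicates 2 and 3 it took 93.3% and 94.5%, with EXPH5 at 6.49% and 4.36%. In replicate 1 it took 70.9%, with SYTL4 at 14.8% and EXPH5 at 13.9%. SYTL2 took 5.46 ± 3.22% of the sum in MKN45 controls and 13.2 ± 2.61% in the overexpression (SD, n = 3), where the libraries (11.4% to 16.2%) lay above all controls (2.41% to 8.82%). MLPH took 18.8 ± 0.774% and 21.0 ± 2.26% of the sum in MKN45 controls and overexpression (SD, n = 3).

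**Figure D4:**
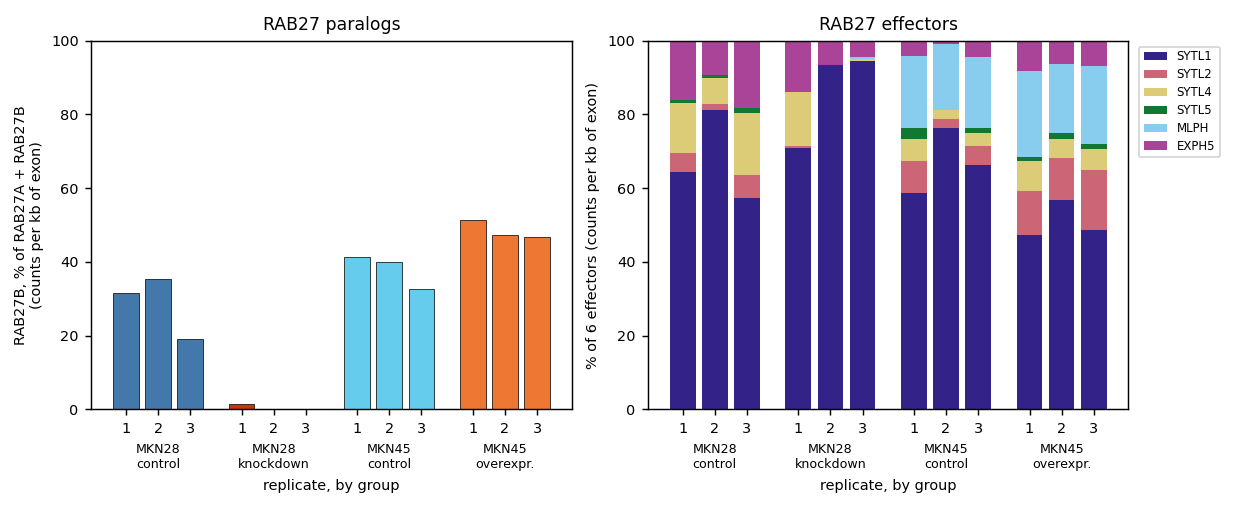
Left, RAB27B as a percentage of RAB27A plus RAB27B, and right, each of 6 effectors as a percentage of their sum, both from counts per kb of exon, with 1 bar per library. RAB27B is at 1.48% or 0% in the knockdown libraries and between 46.9% and 51.3% in the overexpression libraries; MLPH takes a share in MKN45 but not in MKN28 controls.

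The wider pathway was taken from 4 lists with 78 genes, none of them a member. Of 20 tested regulators and other effectors of RAB27, 10 fell in the knockdown (50%), 2 rose (10%) and 8 did not pass. Over all tested genes 21.6% fell and 19.2% rose. The median log2 fold change was −1.86, against −0.20 over all genes and −1.48 in the class of longest genes. In that class 45.3% were counted lower. The fit with the length and GC trend removed is given below for the 4 lists together. Whether exon length accounts for the difference in this list was not tested. CHM and CHML encode the escort proteins that present RAB proteins for prenylation. CHM fell from 19.8 ± 8.92 to 0.490 ± 0.432 CPM (log2 fold change −5.23, SE 0.80). CHML fell from 57.6 ± 19.8 to 5.29 ± 2.73 CPM (−3.44, SE 0.59, adjusted p = 0.00379, edgeR quasi-likelihood test). CHM counts were 507, 244 and 649 in controls and 15, 4 and 1 in the knockdown. DENND4A, a DENN domain exchange factor for RAB proteins, fell by 5.03 on the log2 scale (SE 0.96). RAB3GAP2, a subunit of the RAB3 GTPase-activating complex, had a log2 fold change of −4.33 (SE 1.04). These 4 genes kept their direction under all 14 alternatives. CHM, DENND4A and RAB3GAP2 passed the filter on low counts through the controls alone, so no p is given for them. They remain in the 10 counted, as such genes do in the share of all genes.

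Of 12 tested other RAB GTPases 3 fell (25%), 2 rose (16.7%) and 7 did not pass, with a median of −0.03. Over all tested genes 21.6% fell and 19.2% rose. RAB3A, the synaptic relative of RAB3D, fell by 4.82 on the log2 scale (SE 1.07), from 83, 252 and 54 counts to 0, 5 and 1. It passed the filter on low counts through the controls alone, so no p is given for it, but it remains in the 3 counted. RAB8B fell by 2.48 (SE 0.62, adjusted p = 0.0111) and RAB10 by 1.81 (SE 0.43, adjusted p = 0.00938), both GTPases of exocytic traffic. RAB35, which acts in endocytic recycling, rose 5.63-fold from 87.4 ± 12.9 to 493 ± 198 CPM (SE of the log2 fold change 0.49, adjusted p = 0.00506, edgeR quasi-likelihood test). Of these 4, RAB35 passed under every alternative that kept more than 1 knockdown library. The RAB8B call ended without control replicate 1 or with the length and GC trend removed, and the RAB10 call when control replicate 1, knockdown replicate 3 or both knockdown replicates 2 and 3 were left out (edgeR adjusted p up to 0.272 and 0.0602).

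Of 21 tested SNAREs and docking proteins, 7 fell (33.3%), 3 rose (14.3%) and 11 did not pass, with a median of −0.53. Beside these stand 21.6% and 19.2% of all tested genes. CADPS2, a priming factor of dense-core vesicles (−4.00, SE 0.97), and SYT1, the calcium sensor of fast release (−2.39, SE 0.69), fell. Both passed the filter on low counts through the controls alone, so no p is given for them. UNC13B, a priming factor of the Munc13 family, also fell (−2.91, SE 0.78, adjusted p = 0.0148, edgeR quasi-likelihood test). VAMP2, a vesicle SNARE, rose 6.57-fold from 25.6 ± 14.3 to 169 ± 89.6 CPM (adjusted p = 0.00742, edgeR quasi-likelihood test). The SYT1 call ended under 6 of 14 alternatives, those of CADPS2 and UNC13B under 2 each and that of VAMP2 under 1. With the length and GC trend removed the UNC13B and SYT1 calls ended. The UNC13B call also ended without control replicate 1, the CADPS2 call without control replicate 3, and the CADPS2 and VAMP2 calls without knockdown replicates 2 and 3. The SYT1 call was also lost when any of control replicates 1 and 3 and knockdown replicates 2 and 3 was dropped.

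Exosome and multivesicular body genes were the list in which more genes rose than fell. Of 13 tested 5 rose (38.5%), 1 fell (7.69%) and 7 did not pass, with a median of 0.13. Beside these, 19.2% of all tested genes rose and 21.6% fell. In the class of shortest genes 38.7% rose and 5.54% fell, and whether exon length accounts for the shares of this list was not tested. CD63, a tetraspanin of multivesicular bodies and exosomes, rose 5.87-fold from 196 ± 70.8 to 1152 ± 495 CPM (adjusted p = 0.00631). VPS4A, the ATPase that disassembles ESCRT-III, rose 4.40-fold (adjusted p = 0.0100), CHMP4B, an ESCRT-III subunit, 3.93-fold (adjusted p = 0.00696) and HGS, an ESCRT-0 subunit, 3.50-fold (adjusted p = 0.0173, edgeR quasi-likelihood test). The gene that fell was SDCBP, which encodes syntenin (log2 fold change −1.64), named after its value was seen. CD63 passed under all 14 alternatives. The CHMP4B call ended with the length and GC trend removed and without control replicate 1. The calls of VPS4A and HGS ended without control replicate 1 or 3 and without knockdown replicates 2 and 3 together, and that of HGS also without either of these alone and with library totals (edgeR adjusted p up to 0.0936, 0.217 and 0.137 for VPS4A, HGS and CHMP4B).

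Over the 4 lists together 21 of 66 tested genes fell (31.8%) and 12 rose (18.2%) in the knockdown, beside the 21.6% and 19.2% of all genes. The lists and all genes alike include genes that passed the filter on low counts through the controls alone. With the length and GC trend removed 17 of the 66 fell and 12 rose. In that fit 6196 of all 14939 genes passed, 41.2% of them higher. With library totals alone 21 fell and 6 rose. In the main fit of the overexpression 2 of 70 tested genes rose and 0 fell, beside 0.935% and 0.196% of all genes. At this setting CHML rose 3.32-fold from 9.26 ± 3.91 to 30.8 ± 2.33 CPM (log2 fold change 1.73, SE 0.33, adjusted p = 0.0485). VAMP1, a vesicle SNARE, rose 3.38-fold from 4.43 ± 1.03 to 14.9 ± 0.251 CPM (1.76, SE 0.26, adjusted p = 0.0278, edgeR quasi-likelihood test). CHML counts were 235, 72 and 147 in MKN45 controls against 595, 684 and 514 in the overexpression, and in MKN28 1432, 874 and 1772 in controls against 130, 45 and 27 in the knockdown. Both overexpression calls ended when control replicate 3 or any 1 of the 3 overexpression libraries was dropped, and in the blocked fit (edgeR adjusted p up to 0.261 for CHML and 0.269 for VAMP1 over the 13 alternatives).

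Genes with a profile like that of RAB27B or SYTL2 were ranked by Pearson's r of log2 CPM over the 12 libraries. Since the libraries fall into groups, with the knockdown far below the rest, r mostly reflects that difference and is given as a description. The genes most like RAB27B were MAML2, PRKX, MED14, RNF213 and SYNM, with r of 0.996 for each, and 1552 of 17056 genes had an r above 0.9. MAML2 had 617, 350 and 363 counts in MKN28 controls, 19, 5 and 2 in the knockdown, 1240, 513 and 790 in MKN45 controls and 1379, 1639 and 1379 in the overexpression. The 5 genes most like SYTL2, with r of 0.992 to 0.993, were MED14, BRCA1, FAM227A, SYNE2 and ZBTB44, and 1596 genes had an r above 0.9.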

How the data were processed

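RNA-seq libraries of 2 gastric cancer lines were compared, 3 per group in 4 groups taken from the labels. The deposited values are unnormalized read counts, with genes by Ensembl identifier and a column for each library, per the file headers; all columns were used. The authors used HISAT2 and StringTie, per the submitters' processing notes. How reads were counted, on which build, annotation and strand, is not given in the sources used here. Symbols were found for 49659 of 50868 identifiers. Positions and exon lengths are from GENCODE 29 (GRCh38), found for 50111.

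Each comparison was fitted across all genes with edgeR 4.0.16 (R 4.3.3): TMM factors, filterByExpr (minimum count 10, minimum total 15), the quasi-likelihood test, Benjamini-Hochberg adjustment and a threshold of 0.05. The main fit of each comparison was tested on simulated data, the alternatives were not. In the simulated data 200 genes were changed and no length trend was put in. In the real data 40.8% of tested genes passed in the knockdown and 41.8% between the lines. The rates recovered may therefore differ from those in the real data. Of simulated 2-fold changes it recovered 0% in the knockdown, 12.8% in the overexpression and 6.12% between the lines. Of 4-fold changes it recovered 6.25%, 91.7% and 47.8%. A member that did not pass may therefore still differ by such a fold. CPM in a comparison used TMM factors of its 6 libraries; CPM per group over all 4 groups and per kb used those of all 12, and marker levels used unscaled totals. Alternatives were DESeq2 1.42.0, upper-quartile factors, library totals, no filter, a replicate block, a fit of all 12 libraries, a length and GC trend removed as an offset (mgcv 1.9.3), and leaving out libraries. The members and lists were chosen with earlier results of these data known. Genes named beyond ZNF165 and the members are, per list and arm, at most 4 with the largest fold change among those past the threshold with groups that do not overlap and a mean of at least 1 CPM, and the 5 most alike to RAB27B and to SYTL2.

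Control libraries of the 2 lines share replicate numbers. Correlations of deviations were 0.27, 0.51 and 0.28 for the same numbers 1 to 3. For different numbers they ran from −0.40 to 0.28, the highest for MKN28 replicate 3 with MKN45 replicate 1. Whether the numbers pair these libraries is not settled by these values. The p-values between lines given above are from the fit without a block. A blocked fit was an alternative, with adjusted p = 0.000506 for EXPH5, 0.00470 for SYTL4 and 0.00144 for RAB3D (edgeR quasi-likelihood test). The block changed no call of the 6 members tested between lines. MLPH, with 0 counts in MKN28 controls, was fitted but is given without a p.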

Additional observations from a re-analysis of the deposited data

How the results depend on the processing

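Of the recomputed member fold changes, 298 kept their direction and side of the threshold (untested ones moved by less than the replicate spread), 21 untested ones moved more, 10 lost and 5 gained a call and 12 changed sign. With the length and GC trend removed these were RAB27A (0.60) and EXPH5 (0.11) in the knockdown and RAB27A (−0.23) in the overexpression. The others passed no threshold: MLPH in the overexpression with upper-quartile factors (−0.034), and 5 fold changes with single libraries left out. These ranged in the overexpression from −0.078 to 0.20 for MLPH, −0.13 to 0.39 for RAB27A and −0.41 to 1.18 for SYTL5, and between the lines from −0.047 to 0.58 for SYTL1 and −0.27 to 1.34 for SYTL5. The cause was not tested. Leaving out single libraries, the number of members counted lower in the knockdown was 2 to 7. It was 0 to 1 for members higher in the overexpression and 1 to 3 for members lower in MKN45 controls. For the other pathway genes these ranges were 10 to 32 lower and 4 to 17 higher in the knockdown, and 0 to 2 lower and 0 to 4 higher in the overexpression. With DESeq2, 2 members were higher in the overexpression, and 4 other pathway genes were lower and 4 higher there. With the fit of all 12 libraries 1 member was lower in MKN45 controls and 0 other pathway genes were higher in the overexpression. With the trend removed 1 member was higher in MKN45 controls and 2 other pathway genes were lower in the overexpression. With library totals alone 6 other pathway genes were higher in the knockdown and 1 in the overexpression, and without the filter 1 was lower in the overexpression. With knockdown replicates 2 and 3 left out together, a fit of 1 knockdown library assumed to vary like the controls, 10 other pathway genes were lower and 7 higher.

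With the replicate number as a block, 6 members were counted lower in the knockdown and 0 other pathway genes were higher in the overexpression. Within the arms, correlations of deviations for the same numbers were 0.29, 0.42 and −0.35 in MKN28 and −0.06, −0.06 and 0.09 in MKN45. For different numbers they ran from −0.57 to 0.48 in MKN28 and from −0.16 to 0.15 in MKN45. Whether the numbers pair the libraries is not settled by these values. Over all genes, 6092 passed in the knockdown, 2642 to 10378 with single libraries left out and 3352 without knockdown replicates 2 and 3. In the overexpression 179 passed, 82.7% of them higher. It was 1834 with DESeq2 (56.6% higher), 722 without the filter (67.2%), 1119 with the trend removed (64.9%), 8 with the block, 3 in the fit of all 12 libraries and 1 to 1338 with single libraries left out. Library totals alone moved the median log2 fold change of all genes to 0.10 in the overexpression and −0.16 between the lines, and upper-quartile factors to 0.11 between the lines. Genes near the level of 3 counts, such as SYTL5 and RAB27B in the knockdown, have no exact fold at this depth.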
